A study of Oreochromis niloticus with 14 samples.

Results

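The expression of 10 genes of mitosis was followed in the liver and testis of adult male Nile tilapia (Oreochromis niloticus), out of 12902 genes measured in liver and 16930 in testis. They are ccnb2 (ENSONIG00000015677), cdk1 (ENSONIG00000009163), cks1b (ENSONIG00000019729), ttk (ENSONIG00000000059), prc1b (ENSONIG00000006966), kif20b (ENSONIG00000019118), kifc1 (ENSONIG00000004944), nusap1 (ENSONIG00000019603), mki67 (ENSONIG00000019914) and top2a (ENSONIG00000019923). They were chosen by name from the genes that the study listed as altered by BaP, with their lower level in BaP livers already known. Their liver differences are therefore a description and carry no test, whereas the testis comparison was not the one they were chosen on. All 10 were present in both tables.

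RNA-Seq of poly(A) RNA was performed on the liver of 4 control and 4 BaP fish and on the testis of 3 control and 3 BaP fish, all males from a one-year-old stock. Benzo(a)pyrene (BaP) is a combustion product made of fused aromatic rings that becomes mutagenic once liver enzymes have oxidised it. BaP fish received 3 mg/kg in each of 5 intraperitoneal injections, 6 days apart, and control fish received the DMSO and corn oil carrier on the same schedule. All fish were killed on day 26, and since each aquarium held fish of 1 group, aquarium and BaP cannot be told apart.

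Cells enter mitosis when cyclin B binds and activates the kinase Cdk1, and they leave it when the cyclin is destroyed. In between, motor and bundling proteins build the spindle, checkpoint kinases hold the cell until every chromosome is attached, and topoisomerase II untangles the sister chromatids. Most of these genes are transcribed mainly in cycling cells, so in adult liver, where few cells divide, their transcripts are scarce, while in testis spermatogonia and spermatocytes divide continuously. In whole tissue, fewer dividing cells and less RNA per cell cannot be told apart.

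Levels are given in normalized CPM, which are read counts scaled by a library size that includes the TMM factor of edgeR. The libraries held 12485109 to 42836246 reads on genes in liver and 26694344 to 30347667 in testis, and 3 reads, the smallest level taken as measurable, came to between 0.0646 and 0.270 normalized CPM. The defining hepatocyte genes, with the apolipoprotein gene apoa1a the most abundant, summed to 94949 to 183565 normalized CPM in liver and to 43.7 to 646 in testis. Liver libraries also held 10295 to 33186 normalized CPM of pancreatic enzyme transcripts, with trypsin (try) the most abundant. Of 10 male germ cell markers sought in testis, 3 were found by name, with tdrd15 the most abundant and a summed level of 214 to 314, and the classical markers ddx4, piwil1 and sycp3 were not among the named genes and were not checked.

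In liver, the cyclin B gene ccnb2 was at 12.6, 22.8, 7.59 and 10.2 normalized CPM in control replicates 1 to 4 and at 5.66, 8.24, 4.31 and 7.27 in BaP replicates 1 to 4. For ccnb2, 3 of the 4 controls lay above every BaP liver, and control replicate 3 lay among them. The means were 13.3 ± 6.68 and 6.37 ± 1.74 (SD, n = 4 each), a ratio of 2.09, the smallest of the 10 genes. Its partner kinase cdk1 was at 2.97, 7.62, 1.31 and 13.1 in control and 0.967, 2.75, 1.62 and 2.46 in BaP livers. The controls spanned 10.02-fold and the BaP livers 2.84-fold, and control replicate 3 was again inside the BaP range. The means of cdk1 were 6.25 ± 5.29 and 1.95 ± 0.81 (SD, n = 4 each), a ratio of 3.21. The gene cks1b, which encodes a small subunit that binds Cdk1, was at 4.70, 2.36, 1.99 and 13.5 in control and 2.49, 1.47, 1.80 and 2.77 in BaP livers. For cks1b 2 of the 4 controls stood above all BaP livers and the other 2 fell within their range.

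The checkpoint kinase gene ttk, also called mps1, was at 1.21, 3.44, 1.05 and 9.06 normalized CPM in control and 1.45, 0.916, 1.35 and 1.56 in BaP livers. Its control mean of 3.69 ± 3.74 (SD, n = 4) rested on replicates 2 and 4, as the remaining 2 controls were below the BaP mean of 1.32 ± 0.282 (SD, n = 4). Of the genes for spindle proteins, prc1b, whose product bundles the microtubules of the midzone, was at 1.46, 4.90, 1.88 and 8.09 in control and 0.967, 1.44, 1.71 and 1.84 in BaP livers. It was the only one of the 10 genes in which control replicate 3 exceeded every BaP liver, and there control replicate 1 was lowest instead. The gap to BaP replicate 4 was small, 1.88 (36 reads) against 1.84 (53 reads), and was not resolved at this depth. The kinesin gene kif20b, which acts at the end of cytokinesis, was at 3.23, 4.18, 0.471 and 9.51 in control and 1.04, 0.749, 2.79 and 1.73 in BaP livers. Control replicate 3, with 9 reads (exact 95% Poisson interval 0.215 to 0.894 normalized CPM), had the lowest value of all 8 livers for kif20b. That interval covers BaP replicate 2 at 0.749, so the order of these 2 livers was not resolved.

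The minus-end motor gene kifc1 had the fewest reads, with 1.29, 4.18, 0.366 and 7.92 normalized CPM in control and 1.86, 0.555, 0.270 and 1.63 in BaP livers. BaP replicate 3 held 3 reads of kifc1, an exact 95% Poisson interval of 0.0556 to 0.788, so its place against control replicate 3 (7 reads, 0.147 to 0.755) was not resolved at this depth. These intervals cover counting error only. The gene nusap1, which encodes a microtubule-stabilising protein of the nucleolus and spindle, was at 3.15, 7.75, 2.25 and 10.9 in control and 1.59, 1.83, 2.88 and 0.727 in BaP livers. It had the largest fitted log2 fold change of the 10 genes, and only control replicate 3 fell within the BaP range. Its means were 6.00 ± 4.04 and 1.76 ± 0.884 (SD, n = 4 each), a ratio of 3.42.

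The proliferation antigen gene mki67, whose product coats mitotic chromosomes, was at 3.53, 7.07, 1.15 and 23.4 normalized CPM in control and 0.483, 2.39, 4.31 and 3.29 in BaP livers. BaP replicate 1, with 7 reads (exact 95% Poisson interval 0.194 to 0.996), and control replicate 3 were the lowest livers for mki67. The topoisomerase gene top2a was at 4.48, 11.5, 1.20 and 33.7 in control and 2.28, 2.89, 3.50 and 3.60 in BaP livers. The controls of top2a spanned 28.0-fold, against 1.58-fold among the BaP livers, and control replicate 3 was below every BaP liver. The ratio of its means, 12.7 ± 14.6 over 3.07 ± 0.614 (SD, n = 4 each), was 4.15, the largest of the 10 genes.

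**Figure D1:**
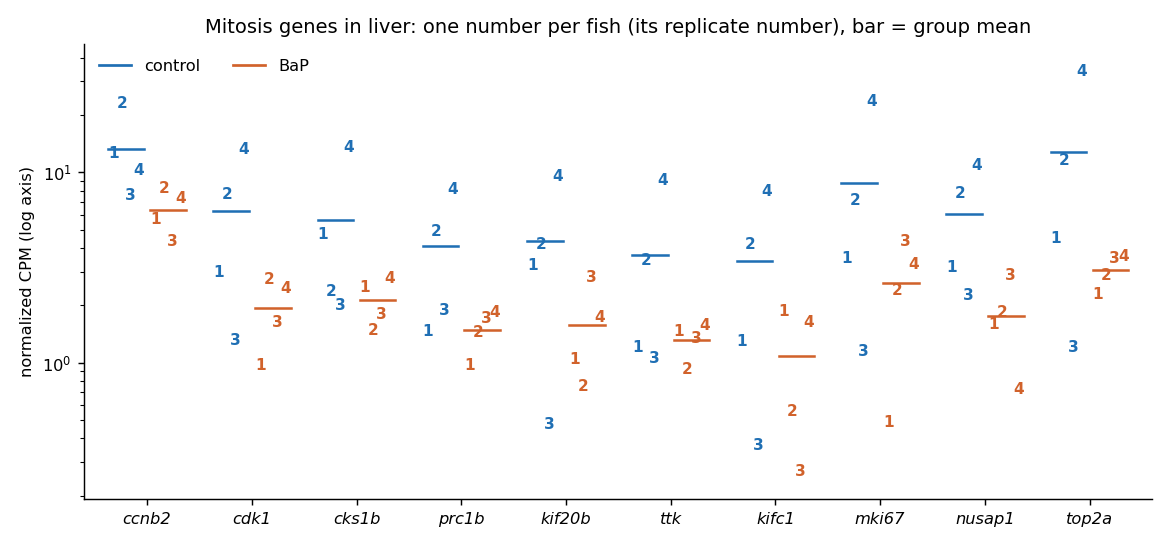
Normalized CPM (log axis) of the 10 genes in liver, with each fish shown by its replicate number, control in blue and BaP in orange, and a bar at the group mean. Control replicate 4 is the highest liver for 9 of the 10 genes, and control replicate 3 is the lowest control for 9 of the 10.

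On the log2(value + 1) scale, the liver difference (BaP minus control) ranged from -0.71 (ttk, SE 0.46) to -1.21 (nusap1, SE 0.43), with a median of -0.86 over the 10 genes against 0.02 over all 12902. All 10 had a lower mean log2 level in BaP livers, as did 48.4% of all liver genes, and all 10 had a control mean at least 1.5 times the BaP mean, as did 14.9% of all genes. Since the genes were chosen on this contrast, nothing is read from these counts. The groups of 0 of the 10 genes were free of overlap, against 7.73% of all liver genes in either direction and 3.67% with BaP lower. With an added 0.1 in place of 1 the median was -1.14, and with the count models of edgeR and DESeq2 it was between -1.60 and -1.58. These models compare mean counts and not mean logs, and they add no constant of this size. The median also depended on 2 control fish. It was -0.40 without control replicate 4, with single genes between -0.24 (ttk) and -0.96 (ccnb2), and -1.29 without control replicate 3.

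**Figure D2:**
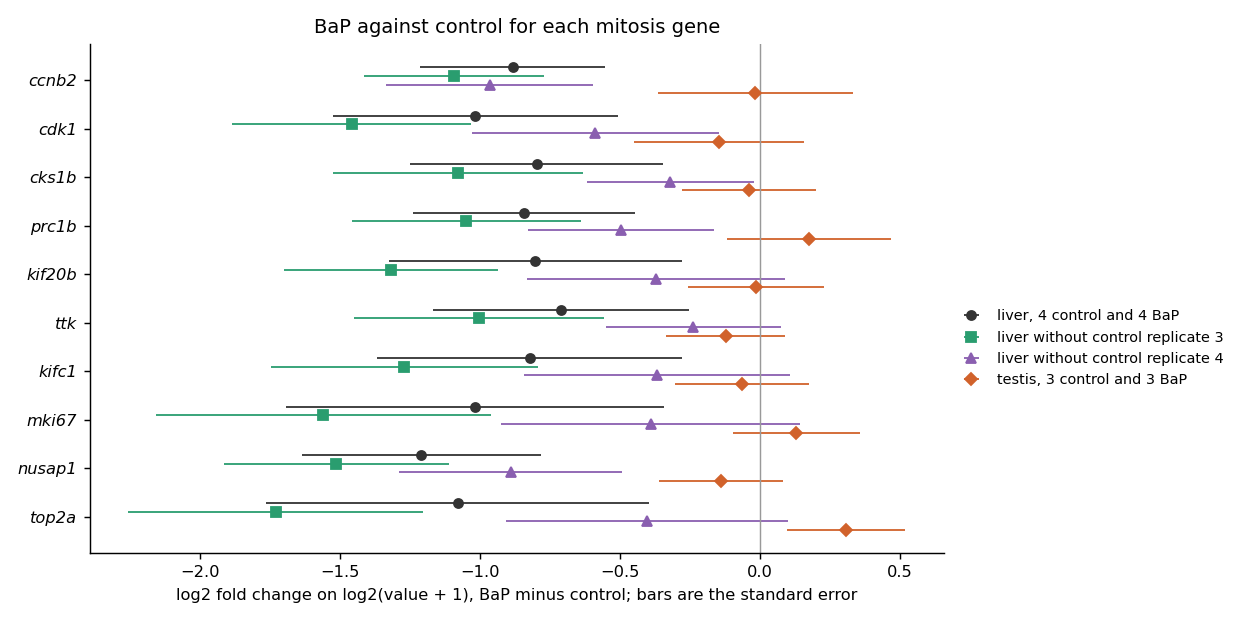
Log2 fold change on log2(value + 1), BaP minus control, with its standard error, for the 10 genes in liver (all fish, without control replicate 3, without control replicate 4) and in testis. The liver values lie between -1.21 and -0.71 with all fish and move toward 0 without control replicate 4 for 9 of the 10 genes, and the testis values lie between -0.15 and 0.31.

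The spread among the livers is given as a description, since the control values entered the contrast on which the genes were chosen. The SD of log2(value + 1) over the 4 control livers had a median of 1.12 over the 10 genes, against 0.42 over all liver genes, and 4.36% of all liver genes reached that value. Over the 4 BaP livers the median SD was 0.39, against 0.35 over all genes. The 10 genes summed to 38.6, 75.9, 19.3 and 139 normalized CPM in control replicates 1 to 4 and to 18.8, 23.2, 24.5 and 26.9 in BaP replicates 1 to 4. The sum in control replicate 3 was thus inside the BaP range, and the other controls were above it.

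The order of the control livers, which rests on the same values and is likewise a description, was nearly the same across the genes. Of the 10 genes, 7 (cdk1, ttk, kif20b, kifc1, nusap1, mki67 and top2a) had the order of replicates 4, 2, 1, 3 from highest to lowest, which 5.25% of all liver genes had. Control replicate 4 was the highest control for every gene but ccnb2, as for 22.1% of all genes, and control replicate 3 was the lowest for every gene but prc1b, as for 27.8% of all genes. Among the BaP livers 8 different orders occurred and none was shared by more than 2 of the 10 genes. The Dixon test for a stray fish, run on each gene's 4 control and 4 BaP livers on the normalized CPM scale, singled out 0 of 20 groups. With 4 values per group, and with genes that share the same fish, this cannot show that no fish was stray.

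Some other measures followed this order in full or in part and others did not, and their part in it was not tested. The cell type markers among them were found only on the study's list of altered genes, so their levels are not independent evidence. Reads on genes ranked the control livers in the same order, from 42836246 in replicate 4 to 20130829 in replicate 3. After the reads of all livers were thinned to the depth of the shallowest, control replicate 4 was the highest control for 9 of the 10 genes. Replicate 3 was then the lowest for 7, and the median log2 difference was -0.91. Thinning keeps the expected normalized CPM of each gene, so it bears on counting error only and does not test the part of depth. Of 5 myeloid cell markers only ncf1 and itgam were found by name, and ncf1, a subunit of the phagocyte oxidase, was the more abundant. Their summed level was 29.1, 40.7, 10.3 and 55.2 normalized CPM in control replicates 1 to 4 and 3.31 to 16.0 in BaP livers. The sum had the order of most of the mitosis genes among the controls, and so did ncf1. The other marker, itgam, did not, at 10.1, 8.49, 0.680 and 7.17 in control replicates 1 to 4, with replicate 1 highest. The summed red cell markers (13 of 14 symbols found, hbb the most abundant) were at 1843, 3632, 239 and 1610 in controls and 210 to 910 in BaP livers, with control replicate 3 again within the BaP range. Their highest control was replicate 2 and not replicate 4. The summed hepatocyte markers ran the other way at the ends, with 94949 in control replicate 4 and 132779 in replicate 3. In BaP livers they summed to 125528 to 183565, and the groups overlapped. The T or NK cell list was almost entirely prf1, at 2984 to 7217 normalized CPM in control livers, and was lowest in control replicate 2. Whether the gene so named is the perforin gene of these cells was not checked, so the list is not read as a measure of them. The B cell list, with ikzf3 the most abundant, overlapped between the groups at 58.5 to 129 and 60.9 to 118.

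The genes also varied together among livers to different degrees. Pearson's r is given here as a description over the 8 livers, on log2 levels centred within each group, and its points share the libraries and their depth. Each gene was set against the mean of the other 9. The coefficient was 1.00 for top2a, 0.94 for cdk1 and ttk, 0.90 for prc1b and mki67, 0.89 for kif20b, 0.84 for kifc1 and 0.80 for nusap1. It was lower for cks1b (0.69) and lowest for ccnb2 (0.25), the gene for which control replicate 2 and not 4 was highest. Over the 45 pairs of genes the median was 0.77.

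Among the genes with a name, the 8 most like the mean of the 10 over the livers were kpna2 (0.99), ndc80 (0.99), kif11 (0.98), atad2 (0.98), cart1 (0.97), anln (0.97), ect2 (0.97) and ckap2 (0.97). The importin gene kpna2 was at 4.05, 14.8, 0.837 and 45.8 normalized CPM in control livers and between 1.28 and 3.50 in BaP livers. The kinetochore gene ndc80 was at 1.29, 3.75, 0.209 and 10.3 in control livers and between 0.472 and 0.899 in BaP livers. Both had control replicate 4 as the highest control and replicate 3 as the lowest, and in control replicate 3 both values were below all BaP livers. There ndc80 was close to the floor of 0.157 for 3 reads in that library, so its place against the BaP livers was not resolved. Since they were picked for their likeness to the 10 over these same livers, the shared order follows from the choice. Only genes on the study's list of altered genes had a name. The median coefficient over all other liver genes was 0.00.

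In testis, none of the 10 genes passed the test for a difference with BaP. The adjusted p (limma, Benjamini-Hochberg over 16930 genes) was 1.00 for every one, and 0 of 10 had an adjusted or an unadjusted p under 0.05, against 0.00591% and 2.52% of all testis genes. The quasi-likelihood and exact tests of edgeR and the Wald test of DESeq2 likewise called 0 of 10, adjusted or not. The groups overlapped for all 10, while they did not overlap for 6.08% of all testis genes.

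The gene cdk1 was at 946, 452 and 531 normalized CPM in control testes 1 to 3 and at 610, 535 and 514 in BaP testes 1 to 3. Its log2 difference of -0.15 (SE 0.30) was the lowest of the 10 and rested on control replicate 1, the only testis above 610. Its cyclin gene ccnb2 was at 223, 129 and 91.1 in control and 162, 137 and 115 in BaP testes, with the controls on both sides of all BaP testes. The subunit gene cks1b was at 139, 94.8 and 92.0 in control and 92.8, 122 and 98.6 in BaP testes, where again control replicate 1 was highest.

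The gene ttk was at 460, 366 and 325 normalized CPM in control and 390, 312 and 348 in BaP testes. The motor gene kifc1, known in rodents for a part in shaping the sperm head, was at 502, 318 and 319 in control and 372, 335 and 358 in BaP testes. For both genes, control replicate 1 was above and another control below most BaP testes. The midzone gene prc1b was at 251, 192 and 195 in control and 314, 267 and 162 in BaP testes, and kif20b was at 120, 133 and 81.5 in control and 96.7, 119 and 110 in BaP testes. The spread of prc1b was wider within BaP testes, 1.94-fold, than within control testes, 1.31-fold.

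The gene nusap1 was at 628, 517 and 410 normalized CPM in control and 468, 495 and 431 in BaP testes. The gene mki67 was at 536, 553 and 402 in control and 544, 630 and 456 in BaP testes. In both, BaP replicate 3 was the lowest BaP testis and control replicate 3 the lowest of all. The gene top2a was at 1177, 1098 and 823 in control and 1280, 1343 and 1175 in BaP testes, and just 1 control testis reached the lowest BaP value. Its log2 difference of 0.31 (SE 0.21, limma adjusted p = 1.00) was the highest of the 10.

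**Figure D3:**
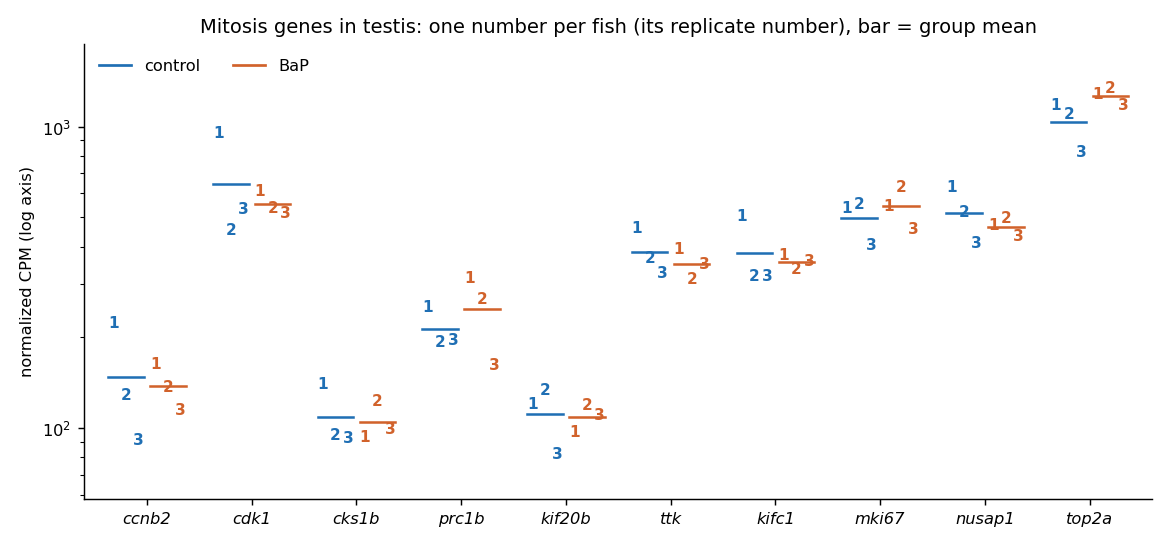
Normalized CPM (log axis) of the 10 genes in testis, with each fish shown by its replicate number, control in blue and BaP in orange, and a bar at the group mean. The groups overlap for all 10 genes, and control replicate 1 is the highest control for 8 of them.

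The log2 difference in testis was below 0 for 7 of the 10 genes, against 53.7% of all testis genes, and its median was -0.03, against -0.02 over all. The 95% intervals of the 10 reached from -0.86 (cdk1) to 0.87 (prc1b), that is from 0.549-fold to 1.82-fold. Changes inside a gene's own interval are thus not excluded with 3 fish per group, and the bounds are no limit of detection. Leaving out single fish moved the median between -0.20 and 0.16, the last without control replicate 1, and the lowest unadjusted p of any of the 10 genes over all alternatives was 0.0989. Control replicate 1 was the highest control for 8 of the 10 genes, as for 38.5% of all testis genes, and control replicate 3 the lowest for 7, as for 31.1%. The SD of log2(value + 1) over the control testes had a median of 0.32 over the 10 genes and 0.35 over all genes, and over the BaP testes 0.15 and 0.26.

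Some markers of other cells moved in testis, and their part was not tested. Markers could be found by name only on the study's list of altered genes, so their shifts with BaP are not independent evidence. The pancreatic enzyme list summed to 6.13 to 10.8 normalized CPM in control and 25.1 to 250 in BaP testes, without overlap. Trypsin (try) was the most abundant, and 6.08% of all testis genes, taken singly, did not overlap either. BaP replicate 2 held 646 of the hepatocyte list, against 43.7 to 84.5 in the other testes. The T or NK cell list, led by granzyme, summed to 8.64 to 20.4 in control and 19.6 to 53.3 in BaP testes, and the B cell list, led by ighg1, to 103 to 376 and 199 to 512. The red cell list, led by hbb, was at 174, 826 and 578 in control and 193 to 256 in BaP testes, and the myeloid list, led by ncf1, at 5.13, 21.2 and 46.8 in control and 12.5 to 21.4 in BaP testes. The groups of these 4 lists overlapped. The 3 germ cell markers found overlapped between the groups, at 214 to 314 in control and 248 to 293 in BaP testes.

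In all, 6 title numbers occur in both tissues and may stand for single fish, which the labels do not state. Number 18 was control replicate 3 in liver, the lowest control for 9 of the 10 genes, and control replicate 1 in testis, the highest control for 8. Number 20 was control replicate 1 in liver and control replicate 3 in testis. The order of the control fish in one tissue was thus not that in the other.

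Levels in the 2 tissues come from tables scaled separately and are set side by side without a test. Every one of the 10 genes had a lower value in every liver than in any testis. The ratio of the control means, testis over liver, was 11.1 for ccnb2, 19.3 for cks1b, 25.6 for kif20b, 52.1 for prc1b, 56.5 for mki67, 81.1 for top2a, 86.4 for nusap1, 103 for cdk1, 104 for ttk and 110 for kifc1. The median over the 12377 genes in both tables was 2.90, and the ratio of ccnb2 stood at percentile 84.3 and that of kifc1 at percentile 99.0 of those genes. Between the lowest testis and the highest liver the factor was still 3.99 for ccnb2 and 40.2 for kifc1. The order of neighbours in this ranking was not resolved, because the control livers alone spanned from 3.01-fold (ccnb2) to 28.0-fold (top2a) over the 10 genes.

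Set against cdk1 within the same library, which leaves out the scaling of the tables, 2 of the other 9 genes had ratios that did not overlap between the tissues. The reads of ccnb2 were 0.778 to 5.86 times those of cdk1 in liver and 0.172 to 0.284 times in testis, so the lowest liver exceeded the highest testis. The ratio of cks1b was 0.309 to 2.57 in liver and 0.147 to 0.228 in testis, also apart. For kifc1 the ranges overlapped, at 0.167 to 1.93 in liver and 0.531 to 0.704 in testis. The ratio of top2a had similar medians, 1.51 in liver and 2.19 in testis, with ranges of 0.920 to 2.57 and 1.24 to 2.51. In liver the lowest ratio of ccnb2, 0.778, was that of control replicate 4, where cdk1 was highest, and the other livers were between 2.67 and 5.86.

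**Figure D4:**
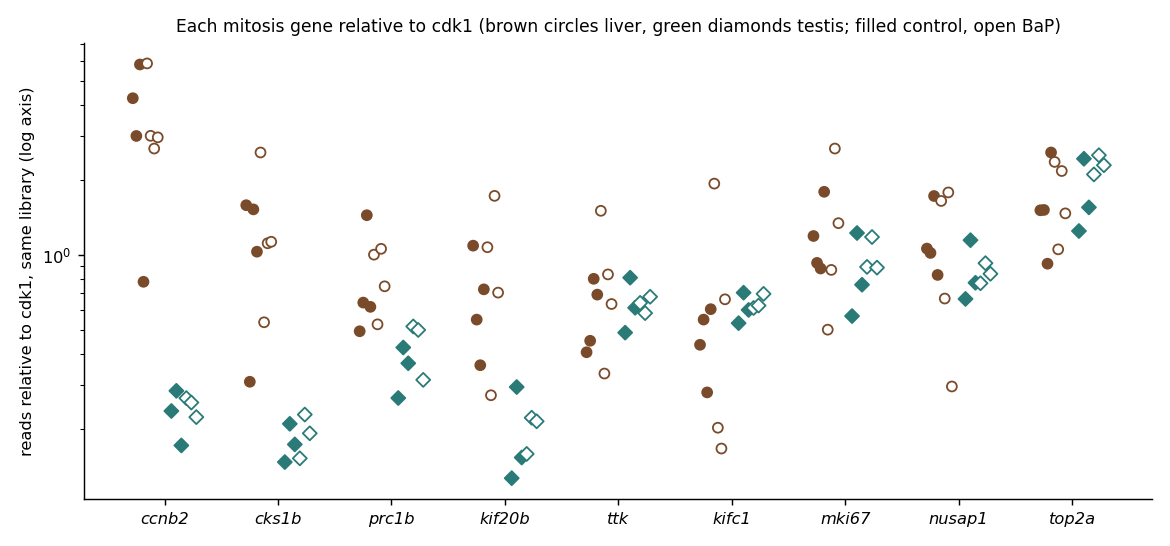
Reads of each of the other 9 genes relative to cdk1 in the same library (log axis), in liver (brown circles) and testis (green diamonds), with control filled and BaP open. For ccnb2 and cks1b every liver lies above every testis, and for kifc1 the testes lie within the range of the livers.

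Other genes of mitosis were taken from 6 lists with 118 symbols. Of these, 35 symbols, for 36 genes, were paired with an ID, all of them on the study's list of altered genes, so their direction in liver is not independent evidence. In liver 27 were lower with BaP and 9 higher, with a median log2 difference of -1.10, while 48.4% of all liver genes were lower. All 6 mitotic kinases and cyclins, all 6 kinetochore and checkpoint genes and all 7 cytokinesis genes found were lower. Of the 11 genes for motors and other spindle proteins 6 were lower, the centrosome gene cdk5rap2 among them, and 5 were higher (cep152, sass6, cep57, cep135 and stil, named after their values were seen). Of 5 genes for chromosome structure 2 were lower, and the single gene of the anaphase-promoting complex, anapc2, was higher. Control replicate 4 was the highest control for 23 of the 36, as for 22.1% of all liver genes, and replicate 3 the lowest for 25, as for 27.8%. This order rests on control values that entered the study's list, in fish shared by all these genes, so it too is a description and not independent evidence.

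Of the 6 of these genes with the highest mean in liver, only tacc3 had its control livers in the order 4, 2, 1, 3. The cell cycle kinase gene cdk2 was at 60.4, 25.5, 6.49 and 13.9 normalized CPM in control and 7.94, 26.1, 3.41 and 7.14 in BaP livers, with control replicate 1 highest and the groups overlapping. The centriole gene sass6 was at 15.6, 4.03, 24.96 and 18.5 in control and 37.3, 42.8, 62.3 and 42.3 in BaP livers, and every BaP liver was above every control. Its log2 difference was 1.69 (SE 0.46), and control replicate 3 was the control nearest to the BaP livers. The centriole gene stil differed less, with 12.9 ± 3.16 in control and 21.0 ± 5.73 in BaP livers (SD, n = 4 each).

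The centrosome gene cdk5rap2 was at 76.0, 96.6, 34.4 and 83.3 normalized CPM in control and 45.1, 29.7, 26.4 and 18.4 in BaP livers, with control replicate 3 within the BaP range. The spindle gene tacc3 was at 6.81, 22.1, 4.81 and 26.1 in control and 3.73, 4.27, 2.79 and 3.50 in BaP livers, so that even control replicate 3 was above them all. The cohesin loader gene mau2 was at 74.7 ± 8.21 in control and 46.3 ± 5.58 in BaP livers (SD, n = 4 each), and its groups did not overlap. In testis, 0 of the 36 genes had an adjusted or an unadjusted limma p under 0.05, against 0.00591% and 2.52% of all testis genes. The log2 differences lay between -0.18 and 0.59. Of the 36, 6 were below 0, against 53.7% of all testis genes, and this departure was not tested.

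**Figure D5:**
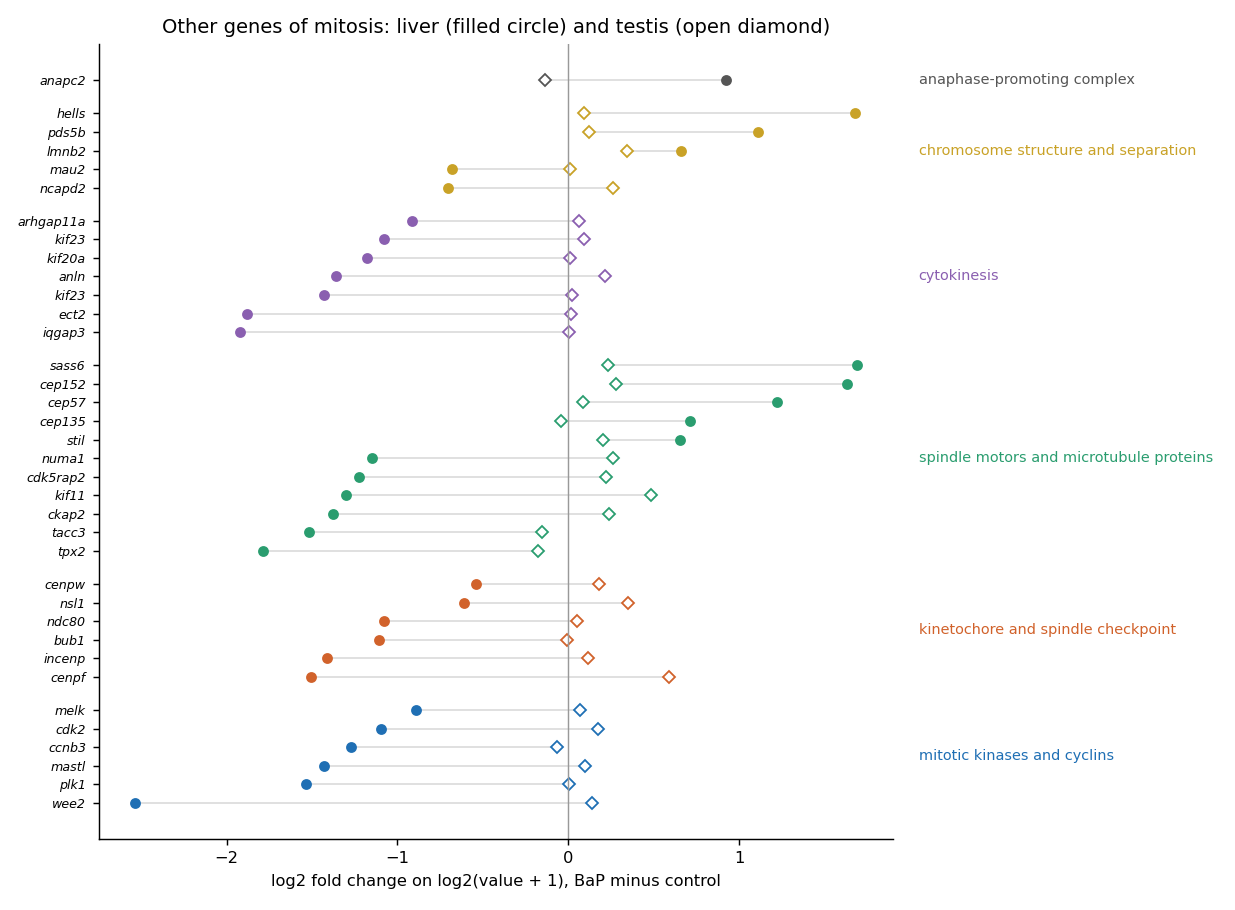
Log2 fold change on log2(value + 1), BaP minus control, of 36 other genes of mitosis in liver (filled circles) and testis (open diamonds), grouped by role. In liver 27 lie below 0 and 9 above, and in testis all lie between -0.18 and 0.59.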

How the data were processed

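Each library came from 1 fish, and samples were grouped by tissue and treatment as labelled. Reads were trimmed, aligned with TopHat and tested with edgeR by the authors. The build, annotation and counting program are not given in the sources used here. The deposited values are a normalized signal: the authors scaled the counts of each gene as CPM over a TMM-adjusted library size, in a separate table per tissue. Dividing by the value of 1 read gave whole reads (tolerance 0.01) for at least 99.9% of values in every library, and TMM factors recomputed from them matched the scaling. Reads per library ranged from 12485109 to 42836246, and 3 reads corresponded to 0.0646 to 0.270 CPM, a floor for counting error only.

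For each tissue, control and BaP fish were compared by limma 3.58.1 (R 4.3.3) on log2(value + 1) over every gene of the table, with Benjamini-Hochberg adjustment and a two-sided threshold of 0.05. Alternatives were a pseudocount of 0.1, a filter that kept genes with a value of 1 or more in at least 3 libraries, scaling by library size only or by DESeq2 size factors, a trended and robust prior, a replicate block and leaving out each library. On the recovered reads, the quasi-likelihood and exact tests of edgeR 4.0.16 and the Wald test of DESeq2 1.42.0 were run. Thinning the reads to the shallowest library was added after seeing the data. In simulated data with 200 genes changed by a log2 fold change of 2, limma recovered 165 of them among the 12902 liver genes and 140 among the 16930 testis genes. The false share of its calls was 0.073 in liver and 0.079 in testis, above the threshold of 0.05. Only this size of change was simulated, and the changed genes were drawn from the more abundant ones only. These counts thus give no recovery rate for smaller differences, for scarcer genes or for the mitosis genes.

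The members and lists were chosen with earlier results of these data known. Names came from the study's list of 1526 altered genes, 1436 of them with a name, since the reference table used here holds 0 of the Ensembl IDs. The fold and p columns of that list were not used. The text names the 10 members, the 6 other listed mitosis genes with the highest liver mean, the 8 named genes most like the members in liver and the 4 in testis, and the most abundant gene of each marker list. Genes outside this rule are said to be so or serve as defining markers. No sequences are printed.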

Additional observations from a re-analysis of the deposited data

Results flagged for a closer look

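The topoisomerase gene top2a had fitted differences of opposite sign in liver and testis. Its log2 difference was -1.08 in liver and 0.31 in testis, a gap of 1.39. All 3 BaP testes were above the mean of the control testes. All 4 BaP livers were below the mean of the control livers, 12.7 normalized CPM. So were control replicates 1 to 3 (4.48, 11.5 and 1.20), the last of them below every BaP liver. Without control replicate 4 the liver difference was -0.40 (SE 0.50). The 95% limma interval of top2a in testis was -0.19 to 0.81, so its sign there was not resolved. In liver the interval was -2.60 to 0.44, which is a description only, since top2a was chosen for its lower level there. The signs also differed between liver and testis for prc1b (-0.84 and 0.18) and mki67 (-1.02 and 0.13). The difference between the tissues was not tested, and prc1b and mki67 were likewise chosen on their liver values. No fish stood out by Dixon's criterion in any of the 20 groups of 4 livers. The groups share the same livers and the genes vary together, so they are not independent trials. With 4 values each they also give the criterion little power, and no conclusion is drawn from it. The groups of 3 testes were not tested in this way.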

How the results depend on the processing

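All 10 genes were lower in BaP livers under every alternative, with log2 differences between -2.07 (top2a) and -0.24 (ttk). They were chosen for lower levels in these same livers, so the shared sign is no independent evidence. The value of -0.24 for ttk, without control replicate 4, had an SE of 0.31. The filter, the trended and robust prior and the replicate block leave each log2 difference unchanged by construction, so they are no check of it. The median over the 10 genes ranged from -1.29 to -0.40 when single livers were left out, the ends being those without control replicates 3 and 4. It was -1.14 with a pseudocount of 0.1 and -1.02 with scaling by library size only, which moved the median of all liver genes to -0.16. Under the quasi-likelihood, exact and Wald tests ttk went from -0.71 to -1.50, -1.49 and -1.51, and top2a from -1.08 to -2.06, -2.05 and -2.07. In testis, 0 of the 10 genes passed under any alternative, and the median ranged from -0.20 to 0.16 when single testes were left out and was 0.04 with scaling by library size only, where the median of all genes was also 0.04. The replicate numbers are shared between the groups but belong to different fish, and the deviations of same-numbered libraries were not correlated in every pair (r between -0.02 and 0.20 in liver and between -0.08 and 0.37 in testis), so the numbers were not taken to pair them. With the replicate block, which cannot move them in this balanced design, the medians were again -0.86 and -0.03. The genes called over the whole table went from 9 to 2 in liver and from 1 to 0 in testis. The exact and Wald tests called more, 223 and 443 in liver and 49 and 54 in testis. The liver reads of the 10 genes, from 3 per library upward, limit single values of kifc1, kif20b and mki67. They also limit the order of close values, such as those of prc1b in control replicate 3 and BaP replicate 4.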

Other observations

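In testis, the 4 named genes most like the mean of the 10 mitosis genes over the 6 libraries were fxr2, gtf3c3, cep135 and atad2, with Pearson's r between 0.99 and 1.00 on log2 levels centred within each group. With 6 points that share their libraries, and few genes paired with a name, this is a description of these fish. The RNA-binding protein gene fxr2 was at 155, 124 and 111 normalized CPM in control and 129, 126 and 113 in BaP testes. The chromatin gene atad2 was at 303, 255 and 223 in control and 279, 266 and 251 in BaP testes. Both were highest in control replicate 1 and lowest in control replicate 3, which follows from their choice by likeness over these testes, and their groups overlapped. Of these 4 genes, atad2 alone was also among the 8 most alike in liver, where it was at 8.96, 15.3, 6.49 and 18.8 in control and 5.32 to 6.47 in BaP livers. In liver the centrosome gene cep135 had a coefficient of -0.17 with the 10 genes, against 0.99 in testis, and the difference between these coefficients was not tested. The testis coefficient is high by the choice of the gene. The control livers, at 1.11 ± 0.04 normalized CPM (SD, n = 4), hardly differed in cep135, so no tissue difference is read from this.

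Over the 45 pairs of mitosis genes the median coefficient was 0.65 in testis and 0.77 in liver. The lowest pair was prc1b with kif20b in testis (-0.03) and ccnb2 with cks1b in liver (-0.17). In testis ccnb2 was among the genes closest to the mean of the other 9 (0.98), whereas in liver it was the farthest (0.25). The germ cell list was led by txndc8 in liver, where it summed to 72.4 to 181 normalized CPM in control and 39.5 to 147 in BaP livers. The txndc8 gene found in both tissues was at 42.9 to 108 in control livers and at only 1.12 to 9.23 in testes. It was thus no germ cell marker by its own values, and the liver sum is not read as germ cell RNA.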
